A study of Homo sapiens with 28 samples.

Results

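In Jurkat cells the H3K27ac peaks of each replicate were set against the H3K27me3 peaks of the same replicate, on the main human chromosomes (hg38). Over all sequences these 4 libraries held 88428 of the 367627 peaks in the 24 peak lists of the series, which also cover a second human line, Loucy, and mouse bone marrow. On the main chromosomes 88149 of the Jurkat peaks remained. The H3K27ac lists held 32613 of them in replicate 1 and 28826 in replicate 2. The H3K27me3 lists held 16590 in replicate 1 and 10120 in replicate 2. Peaks on unplaced or unlocalized sequences were left out.

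H3K27ac and H3K27me3 are modifications of the same lysine of histone H3, so a single histone tail can carry only one of them at a time. H3K27ac is laid down by the acetyltransferases p300 and CBP and marks active promoters and enhancers. Long runs of it lie over clusters of enhancers, often beside genes that define a cell's identity. H3K27me3 is laid down by EZH1 or EZH2 within Polycomb repressive complex 2, marks silenced genes and often spreads into wide domains. Jurkat is an established line from a T-cell acute lymphoblastic leukaemia, a cancer in which both the Polycomb machinery and large enhancers are often altered.

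The labels name the Jurkat groups by antibody alone: H3K27ac (Diagenode C15410196), 2 libraries, and H3K27me3 (Merck Millipore 07-449), 2 libraries. Loucy, also a human T-cell leukaemia line, has 2 libraries for each of the same antibodies. No treatment, genetic change or time point is given for either line. All were grown in RPMI-1640 with 10% serum, and 5000000 cells a sample were fixed in 1% formaldehyde for 10 min. Drosophila chromatin was added to every immunoprecipitation, but the submitters did not use it, so a change in the total amount of a mark could not be read from the peaks. The labels do not state that replicates were separate cultures. The p-values below therefore concern only these libraries, whose differences may be technical. With 2 libraries against 2, an exact permutation p of 0.333 means only that the groups did not overlap, whatever the spread within them. The 4 Jurkat lists were all called against the same input library, with 23724029 fragments, so their errors from the input are shared. The H3K27ac libraries held 11329731 and 11828122 fragments (replicates 1 and 2), and the H3K27me3 libraries 9209392 and 12261421. The deeper H3K27me3 library was the one with fewer peaks.

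H3K27ac peaks were longer, more numerous and covered more of the genome than H3K27me3 peaks in both replicates. The median H3K27ac peak was 1080 bp in replicate 1 and 1167 bp in replicate 2, against 507 bp and 498 bp for H3K27me3. The 2 marks did not overlap on this measure. The means were 1124 ± 61.5 bp for H3K27ac and 502.5 ± 6.36 bp for H3K27me3 (SD, n = 2 each), a difference of 621 bp, with an exact permutation p of 0.333 (two-sided), the smallest p that 2 libraries against 2 can give. In the long tail, the 95th percentile of length was 3995 and 4083 bp for H3K27ac, against 1897 and 1772 bp for H3K27me3, a difference of means of 2204 bp (exact permutation p = 0.333). H3K27ac peaks numbered 30720 ± 2678 a library and H3K27me3 peaks 13355 ± 4575 (SD, n = 2 each; exact permutation p = 0.333). None of these comparisons could reach a p under 0.05 with 2 libraries a mark. At equal peak numbers the differences in length were larger, 1357 bp in the median and 3991 bp in the 95th percentile, while at a −log10 q of at least 5, with under 20 H3K27me3 peaks a library, they were 143 and 1101 bp.

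The cover of each mark was summed over all peaks of a library. H3K27ac covered 48.8 and 45.2 Mb, or 1.81% and 1.68% of the effective genome size named in the file headers. H3K27me3 covered 11.5 and 6.68 Mb, or 0.425% and 0.247%. The mean H3K27ac cover was 5.18 times the mean H3K27me3 cover (47.0 ± 2.51 Mb against 9.07 ± 3.39 Mb, SD, n = 2 each; exact permutation p = 0.333), with a mean peak length of 1496 and 1570 bp for H3K27ac against 691 and 660 bp for H3K27me3. Such a sum moves with how many peaks pass the caller's threshold: at equal peak numbers the difference of means was 18.0 Mb, against 38.0 Mb with all peaks. A known feature of H3K27me3, its wide spread, was not visible as long peaks in these lists: 0.121% and 0.0692% of H3K27me3 peaks were at least 5 kb long (20 and 7 peaks), against 3.04% and 3.21% of H3K27ac peaks (992 and 924 peaks). The shortest peak in each list was as long as the fragment size in its header, 181 and 191 bp for H3K27ac and 182 and 186 bp for H3K27me3. Under 500 bp lay 23.7% and 20.1% of H3K27ac peaks, and 49.4% and 50.1% of H3K27me3 peaks.

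**Figure D1:**
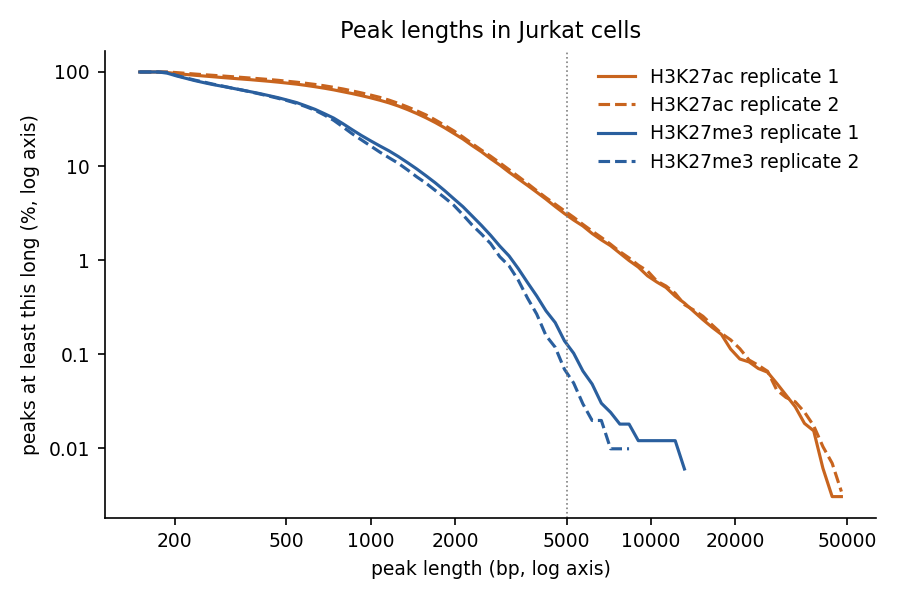
Share of Jurkat peaks (percent, log axis) that are at least as long as the length on the x axis (bp, log axis), for H3K27ac and H3K27me3, replicates 1 (solid) and 2 (dashed). The dotted line stands at 5 kb, where the H3K27ac curves are at 3.04% and 3.21% and the H3K27me3 curves at 0.121% and 0.0692%.

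The H3K27me3 peaks stood less far above the input than the H3K27ac peaks. Fold enrichment and q are the caller's own values for each peak, deposited by the authors, and are used here only to describe, rank or filter peaks within a list. The median fold was 4.25 and 4.61 in the H3K27ac lists and 3.71 and 3.79 in the H3K27me3 lists. The highest fold was 33.9 and 35.6 for H3K27ac, against 6.21 and 6.11 for H3K27me3. The median H3K27ac peak had a −log10 q of 3.64 and 4.57, while the median H3K27me3 peak had 1.38 and 1.42, near the q cutoff of 0.05 in the headers. At a −log10 q of at least 5 there were 13909 and 13833 H3K27ac peaks, but only 19 and 18 H3K27me3 peaks. A q above 0.05 was listed for 8.29% and 3.19% of H3K27ac peaks, and for 38.5% and 29.3% of H3K27me3 peaks. Most H3K27me3 peaks were thus weak calls by this measure.

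Longer peaks were found again more often than shorter ones, for both marks. A peak counted as found again when a peak of the other replicate overlapped it by at least 200 bp. Of H3K27ac peaks, 71.5% of replicate 1 and 81.1% of replicate 2 were found again, and of H3K27me3 peaks 16.1% and 26.9%. The bases covered in both replicates made up 67.3% of those covered in either for H3K27ac (37.8 of 56.2 Mb) and 13.4% for H3K27me3 (2.15 of 16.0 Mb). Among peaks under 500 bp, 23.5% and 38.8% of H3K27ac peaks and 5.44% and 12.4% of H3K27me3 peaks were found again. Among peaks of 2 to 5 kb these shares were 99.4% and 99.8% for H3K27ac and 75.7% and 91.9% for H3K27me3. All 992 and 924 H3K27ac peaks of at least 5 kb were found again, as were 19 of the 20 and all 7 of the H3K27me3 peaks of that length. Peaks shorter than 200 bp could not be found again by this rule. They made up 14.1% and 5.66% of the H3K27ac peaks under 500 bp, and 16.6% and 13.2% of the H3K27me3 peaks under 500 bp. With an overlap of at least 50% of the shorter peak instead, a rule added after the values were seen, 28.9% and 46.1% of H3K27ac peaks and 7.34% and 16.0% of H3K27me3 peaks under 500 bp were found again. By that rule the shares at 2 to 5 kb were 99.2% and 99.6% for H3K27ac and 72.5% and 85.2% for H3K27me3. Over all lengths they were 72.5% and 82.3% for H3K27ac and 16.4% and 27.4% for H3K27me3.

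**Figure D2:**
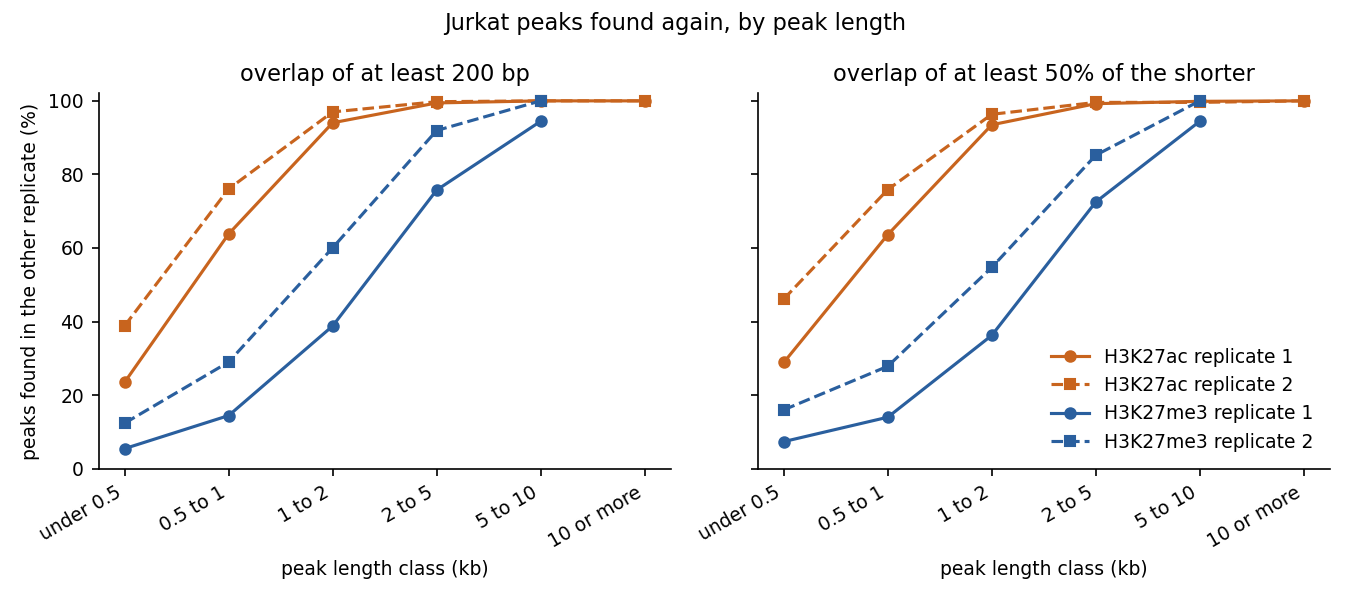
Percent of Jurkat peaks found in the other replicate, by length class (kb), for H3K27ac and H3K27me3 in each replicate, with an overlap of at least 200 bp (left) or of at least 50% of the shorter peak (right); classes with under 5 peaks are not drawn. At 1 to 2 kb, H3K27ac peaks were found again in 94.0% and 97.0% of cases by the first rule and 93.5% and 96.3% by the second, and H3K27me3 peaks in 38.8% and 60.0%, and 36.2% and 54.7%.

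Over wider windows the H3K27me3 replicates resembled each other much more than their single peaks did. In 10 kb windows over the autosomes (287333 windows), the Spearman correlation of covered bases between replicates was 0.86 for H3K27ac and 0.45 for H3K27me3. In 100 kb windows (28723) it was 0.95 and 0.65, and in 1 Mb windows (2864) it was 0.99 and 0.86. These are descriptions across windows of the same libraries, which share the input and the base composition of each window, and windows with no peak in either replicate count as alike. Which stretches of a chromosome carried H3K27me3 peaks thus recurred in both replicates more than the exact peaks did.

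Broad acetylated domains were defined as H3K27ac peaks of at least 5 kb in each replicate that overlapped over at least 50% of the shorter. There were 755 in both replicates, joining 767 peaks of replicate 1 and 772 of replicate 2. The remaining 225 and 152 peaks of that length were met in the other replicate by peaks that were shorter or overlapped less. The peaks next to the length threshold were 5000 and 4998 bp in replicate 1, and 5000 and 4999 bp in replicate 2. The median domain was 7.54 kb long, as the mean of both replicates, 198 averaged at least 10 kb and 35 at least 20 kb. The 2 replicates gave close lengths: the shorter was a median 92.4% of the longer, and at least 80% of it in 627 of the 755. They lay on 23 chromosomes, with 76 on chromosome 1 and 26 on the X chromosome.

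The longest acetylated domain lay at chr21:35002623-35053962, with 49.4 kb of H3K27ac in replicate 1 and 50.7 kb in replicate 2. No human gene annotation was used here, so domains are named by place alone. The next, at chr5:80176466-80222323, held 42.3 and 44.7 kb, and the domain at chr2:239288894-239332920 held 41.9 and 44.0 kb. Just before its start, a second domain at chr2:239245279-239281948 held 35.6 kb in both replicates. On chromosome 14 another pair lay end to end, at chr14:91348569-91383766 (33.9 and 32.1 kb) and chr14:91384753-91419234 (33.5 and 34.5 kb). The others among the 10 longest were at chr20:57671861-57711698 (39.3 and 39.8 kb), chr1:228608399-228648027 (39.6 and 39.4 kb), chr1:198155927-198194139 (38.2 and 36.6 kb) and chr6:27806485-27840278 (33.8 and 33.3 kb). The authors' fold in these 10 ran between 4.09, at chr1:228608399-228648027, and 13.5, at chr2:239288894-239332920. The low-fold domain on chromosome 1 was as long in both replicates as its neighbours in the ranking. Length and fold were therefore not the same order.

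None of the 755 broad domains shared a base with an H3K27me3 peak in either replicate. Few H3K27ac peaks of any length did, 0.484% in replicate 1 and 0.343% in replicate 2, so a count of 0 is near that background. In replicate 2, 1 of the 924 peaks of at least 5 kb overlapped H3K27me3 by 200 bp or more, outside these domains. The nearest H3K27me3 peak was a median 341 kb away in replicate 1 and 427 kb in replicate 2. For 2 and 3 of the 755 it lay within 5 kb. For the 10 longest the gap ran between 52.9 kb and 870 kb in replicate 1, and between 54.4 kb and 2022 kb in replicate 2. The median gap between neighbouring broad domains was 963 kb, and 104 of the 755 had the next within 20 kb. The domains at chr6:26120556-26277405, joined across gaps of up to 50 kb, formed a group of 7 with 54.3 kb of H3K27ac in the mean of both replicates. Another group of 7, at chr21:34880558-35053962, held 104 kb and contained the longest domain of all.

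**Figure D3:**
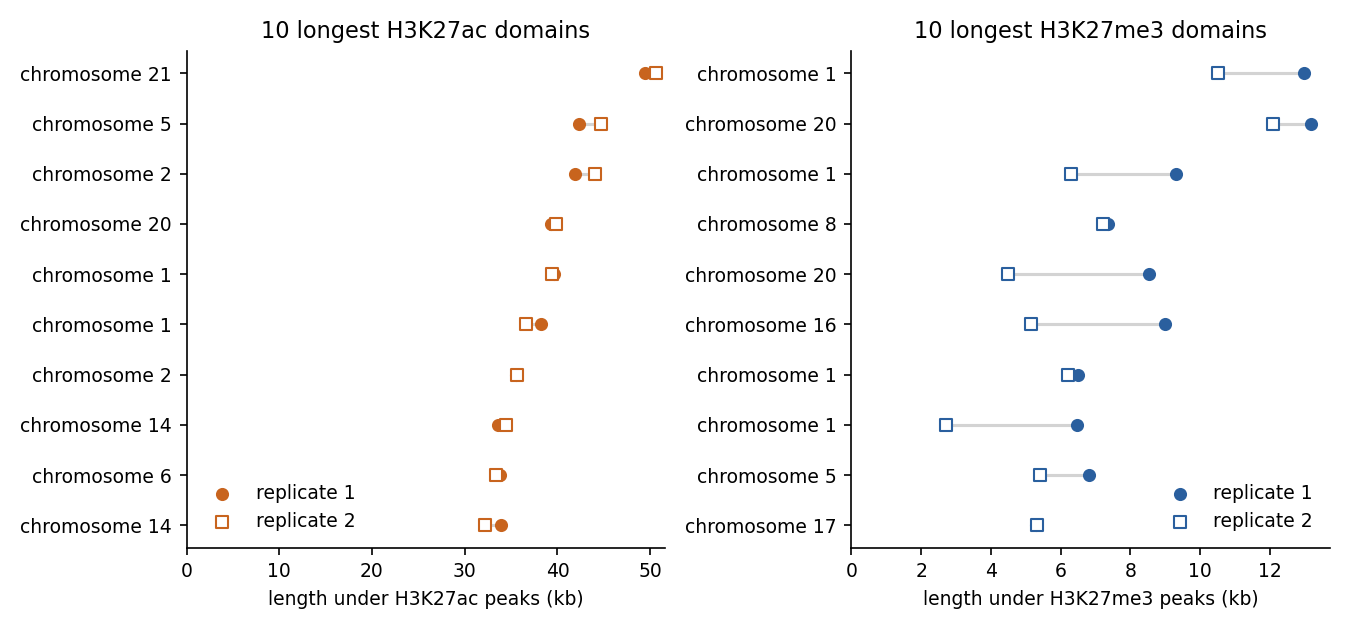
Length (kb) under peaks in replicate 1 (filled circles) and replicate 2 (open squares) for the 10 longest domains found in both replicates, H3K27ac on the left and H3K27me3 on the right; the x axes differ in scale and rows are named by chromosome. H3K27ac lengths run between 32.1 and 50.7 kb with the replicates close together, and H3K27me3 lengths between 2.71 and 13.2 kb with wider gaps between replicates.

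The H3K27ac peaks with the highest fold in both replicates were not the longest ones. By the lower of the replicates' folds, the first was at chr10:32345525-32347858, with a fold of 33.3 in replicate 1 and 34.2 in replicate 2 and lengths of 2334 and 2378 bp. Next came chr7:26198596-26203484 (33.1 and 35.6), chr9:97979234-97986483 (32.7 and 32.8), chr19:10501506-10503867 (33.9 and 32.4) and chr6:42781785-42784469 (31.7 and 32.0). All 5 were between 2278 and 7657 bp long, and only the one on chromosome 9 passed 5 kb in both replicates. None was among the 10 longest domains.

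H3K27me3 peaks of both replicates joined into 23148 regions, of which 3265 (14.1%) were held by both replicates, with at least 10% of the region under peaks in each. Replicate 1 alone held 13218 and replicate 2 alone 6665. For H3K27ac the same joining gave 36445 regions, with 23915 (65.6%) in both. The H3K27me3 domains in both replicates had a median length of 1.35 kb, against 0.430 kb and 0.389 kb for regions of replicate 1 alone and replicate 2 alone. They covered 5.31 Mb in all, 888 were at least 2 kb long and 41 at least 5 kb. The region closest to the 10% limit on the inside had 10.04% covered in its lesser replicate, and the closest outside 9.996%. Joining peaks lengthens a region, so part of this difference in length follows from the definition. The count fell to 1609 when 50% cover was required, to 2059 with peaks of q up to 0.05 (a setting chosen after the values were seen) and to 14 at a −log10 q of at least 5.

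The longest H3K27me3 domain, at chr1:18634610-18648310, held 13.0 kb of peaks in replicate 1 and 10.5 kb in replicate 2. The one at chr20:48503399-48516634 held 13.2 and 12.1 kb, and a pair on chromosome 1, chr1:2652286-2662840 and chr1:2663865-2672361, held 9.32 and 6.30 kb and 6.51 and 6.21 kb. The other 6 of the 10 longest were at chr8:46411527-46421725 (7.37 and 7.22 kb), chr20:62478676-62488131 (8.55 and 4.49 kb), chr16:49853491-49862481 (8.99 and 5.14 kb), chr1:3199977-3207958 (6.48 and 2.71 kb), chr5:778914-786687 (6.82 and 5.42 kb) and chr17:79527566-79534984 (5.31 and 5.32 kb). None of the 10 shared a base with H3K27ac in either replicate. Of all 3265 domains, 3152 (96.5%) shared none in either replicate, and 52 overlapped H3K27ac by at least 200 bp in both. Over all single H3K27me3 peaks, only 0.934% and 0.988% shared a base. The domains are longer than most single peaks, which bears on such a count. Of the single H3K27me3 peaks of at least 5 kb, 0 of 20 in replicate 1 and 2 of 7 in replicate 2 overlapped H3K27ac by 200 bp or more. The folds of the 10 longest domains lay between 2.98 and 4.49. In the H3K27me3 lists the median fold was 3.71 and 3.79 and the highest 6.21 and 6.11. Replicate 1 held more of the domain than replicate 2 in 9 of the 10, and it was also the library with more peaks.

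H3K27me3 domains were grouped along the chromosomes. Joined across gaps of up to 50 kb, the 3265 domains made 1886 groups, and 88 groups of 5 or more domains held 749 of them. The largest group spanned chr1:2652286-3424352 with 58 domains and 140 kb of H3K27me3, beside 3.78 and 4.19 kb of H3K27ac. The next, chr17:79093466-79538098, had 36 domains over 73.5 kb and no H3K27ac peak in either replicate, the nearest being 17.7 and 17.8 kb off. Taken in order along a chromosome, 11.8% and 11.7% of neighbouring peaks were of different marks, although H3K27me3 made up 33.7% and 26.0% of all peaks. Runs of 10 or more H3K27me3 peaks with no H3K27ac peak starting between them held 61.5% of the H3K27me3 peaks of replicate 1 and 47.8% of those of replicate 2. The longest run fell in the same place in both: chr17:79094015-79772525 with 140 peaks in replicate 1, and chr17:79093466-79742059 with 89 peaks in replicate 2. The second longest was also shared, at chr16:5110018-8554284 (137 peaks) and chr16:5113916-8557749 (86 peaks), and spanned 3.44 Mb in each.

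The highest H3K27me3 folds found in both replicates were modest. At chr2:91476914-91480921 the fold was 5.96 in replicate 1 and 6.06 in replicate 2, over 4008 and 4371 bp. A second peak near it, chr2:91440452-91444602, had 5.28 and 5.82. The others of the first 5 were at chr1:144882371-144883764 (6.00 and 5.50), chr1:1078394-1079389 (5.12 and 5.20) and chr11:133064233-133066267 (5.11 and 4.99). None of the 5 was among the 10 longest H3K27me3 domains.

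The 2 marks rarely shared ground. With an overlap of at least 200 bp, 122 of 32613 H3K27ac peaks (0.374%) met H3K27me3 in replicate 1, and 72 of 28826 (0.250%) in replicate 2. In the other direction, 121 of 16590 H3K27me3 peaks (0.729%) and 73 of 10120 (0.721%) met H3K27ac. The shared bases came to 74.0 kb and 46.3 kb, which is 0.152% and 0.102% of the H3K27ac cover, while H3K27me3 covered 0.425% and 0.247% of the effective genome. With the H3K27me3 lists exchanged between replicates, 0.264% of the H3K27ac peaks of replicate 1 met the H3K27me3 of replicate 2. Of the H3K27ac peaks of replicate 2, 0.378% met the H3K27me3 of replicate 1. The share thus followed which H3K27me3 list was used. Peaks that met the other mark were shorter for H3K27ac (median 735 and 790 bp, against 1082 and 1168 bp for the other H3K27ac peaks) and longer for H3K27me3 (1015 and 868 bp, against 504 and 496 bp for the other H3K27me3 peaks). Peaks under 200 bp, 8.22% and 6.61% of the H3K27me3 lists, could not meet this rule, and longer peaks have more bases to share. Part of the H3K27me3 difference may thus follow from the rule. Overlap of peaks from separate libraries cannot show whether both marks lie on the same nucleosome or in different cells.

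A small set of peaks with very high coverage made up part of the shared ground. They had a pileup, the number of fragments stacked over a peak, of at least 50 and a fold under 2, so the input was high there too. There were 17 and 17 such H3K27ac peaks and 57 and 71 such H3K27me3 peaks. Of the H3K27ac ones, 16 and 17 met H3K27me3, and they held 16.2% and 31.6% of all shared bases. Without such peaks of either mark, a mean of 0.258% of H3K27ac peaks and 0.607% of H3K27me3 peaks met the other mark, a setting chosen after the values were seen. They also stood out among the strongest H3K27me3 calls by q: 8 of the 19 and 11 of the 18 with a −log10 q of at least 5 were of this kind, and 11 and 10 of those strongest calls met H3K27ac.

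With at least 200 bp shared in each replicate, the marks overlapped at 38 distinct places in both replicates, and 13 of these held an H3K27ac peak of the high-coverage kind. The longest overlap, at chr5:49657770-49660272, was one of these: 2503 bp in replicate 1 and 3857 bp in replicate 2, with H3K27ac folds of 1.49 and 1.45 and H3K27me3 folds of 1.79 and 1.66. The segment at chr16:46389807-46391224 was of the same kind, with H3K27ac pileups of 247 and 275. The others of the first 5 had ordinary coverage. At chr10:125158592-125160493 the overlap was 1902 and 1711 bp, with folds of 5.28 and 5.12 for H3K27ac and 4.54 and 4.92 for H3K27me3. At chr11:114060011-114061474 it was 1464 and 1878 bp, with 4.54 and 3.62 for H3K27ac and 3.78 and 4.04 for H3K27me3. At chr13:26050104-26051785 it was 1682 and 1393 bp, with 5.27 and 5.96 for H3K27ac and 3.92 and 3.86 for H3K27me3.

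Away from direct overlap, the marks were usually far apart. The median gap from an H3K27ac peak to the nearest H3K27me3 peak was 273 kb in replicate 1 and 341 kb in replicate 2, and from an H3K27me3 peak to the nearest H3K27ac peak 124 and 128 kb. The first gap was larger in the replicate with fewer H3K27me3 peaks, and the second came to 228 kb on average when all lists were reduced to their 10120 strongest peaks. At those equal numbers both overlap shares were 0.0939%. Within 10 kb of the other mark lay 2.78% and 2.07% of H3K27ac peaks and 6.17% and 6.37% of H3K27me3 peaks. Within 100 kb lay 23.1% and 18.4% of H3K27ac peaks and 43.8% and 42.7% of H3K27me3 peaks. H3K27ac peaks of 10 kb or more were a median 393 and 480 kb from H3K27me3 and those of 5 to 10 kb 327 and 408 kb, against 279 and 342 kb for H3K27ac peaks under 500 bp. Below 5 kb the distance did not grow with length: it was 259 and 334 kb at 1 to 2 kb and 267 and 328 kb at 2 to 5 kb. H3K27me3 peaks of 2 to 5 kb were 67.2 and 63.8 kb from H3K27ac, against 145 and 150 kb for H3K27me3 peaks under 500 bp.

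The density of each mark was then followed outward from the edges of the other, as kb of peaks per Mb of ground, divided by the density over all chromosomes. Inside the peaks of the other mark, each mark stood at 0.403 and 0.468 of its overall density, above its value 2 to 5 kb outside. H3K27ac was sparsest 2 to 5 kb from an H3K27me3 edge, at 0.162 and 0.179 of its overall density of 16.0 and 14.8 kb per Mb. It passed its overall density at 50 to 100 kb (1.04 and 1.01) and was densest at 200 to 500 kb (1.35 and 1.34). H3K27me3 was also sparse 2 to 5 kb from an H3K27ac edge, at 0.341 and 0.391 of its overall density of 3.76 and 2.19 kb per Mb. It was less sparse in the first 0.5 kb beside an edge (0.695 and 0.720), passed its overall density at 20 to 50 kb (1.02 and 1.05) and was densest at 100 to 200 kb (1.76 and 1.67). More than 1000 kb from any H3K27ac peak it fell to 0.155 and 0.217. The ground was the whole chromosome extent, and stretches where no peak can be called, such as assembly gaps, were left in it. Their share of this farthest class was not measured. Both replicates gave profiles of the same form.

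**Figure D4:**
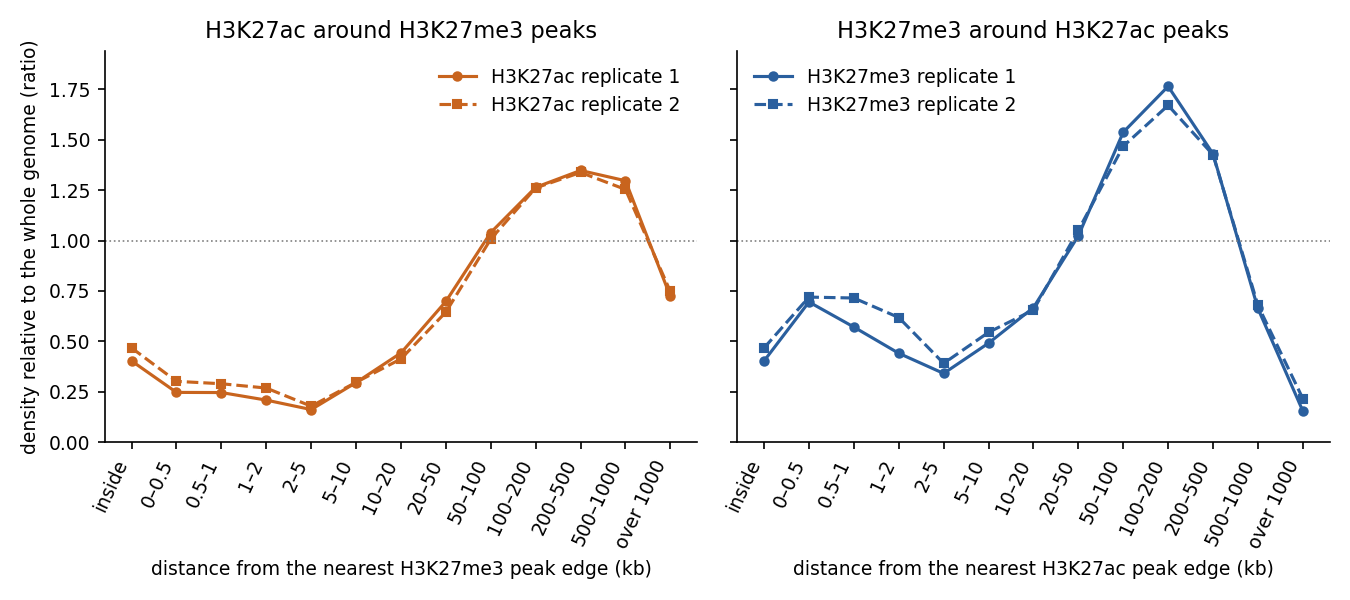
Density of H3K27ac by distance (kb) from the nearest H3K27me3 peak edge (left), and of H3K27me3 by distance from the nearest H3K27ac edge (right), as a ratio to the density over all chromosomes (dotted line at 1), in replicates 1 (solid) and 2 (dashed). Both marks are lowest outside the edges at 2 to 5 kb, except for H3K27me3 more than 1000 kb away, and both exceed 1 between 50 and 500 kb.

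Over whole chromosomes the marks were denser on some of the same chromosomes. Cover ran between 8.52 and 39.1 kb per Mb over the 22 autosomes for H3K27ac in replicate 1, and between 7.46 and 36.6 in replicate 2. For H3K27me3 it ran between 1.18 and 9.54 kb per Mb in replicate 1, and between 0.626 and 5.44 in replicate 2. Chromosome 19 was highest and chromosome 4 lowest for both marks in both replicates. Across the autosomes the Spearman correlation of the marks was 0.65 and 0.67, as a description of chromosomes that also differ in gene content and base composition. Some chromosomes departed from it: chromosome 3 had 9.63 and 13.8 times as much H3K27ac as H3K27me3 cover, while chromosome 20 had 2.49 and 4.32 times.

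The X chromosome had very little H3K27me3. It carried 0.186 and 0.117 kb of H3K27me3 per Mb (41 and 30 peaks), under the lowest autosome in both replicates, beside 8.75 and 7.75 kb of H3K27ac per Mb (844 and 739 peaks), which is within the autosomes' range. Of the 3265 H3K27me3 domains in both replicates, 11 lay on the X chromosome. H3K27ac cover there was 47.0 and 66.1 times the H3K27me3 cover. Low H3K27me3 was not particular to X: the Y chromosome carried 0.101 and 0.128 kb of H3K27me3 per Mb (5 and 6 peaks). H3K27ac was low on Y too, at 2.48 and 1.67 kb per Mb (51 and 34 peaks), under the lowest autosome. The number of copies of each chromosome in these cells was not measured.

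**Figure D5:**
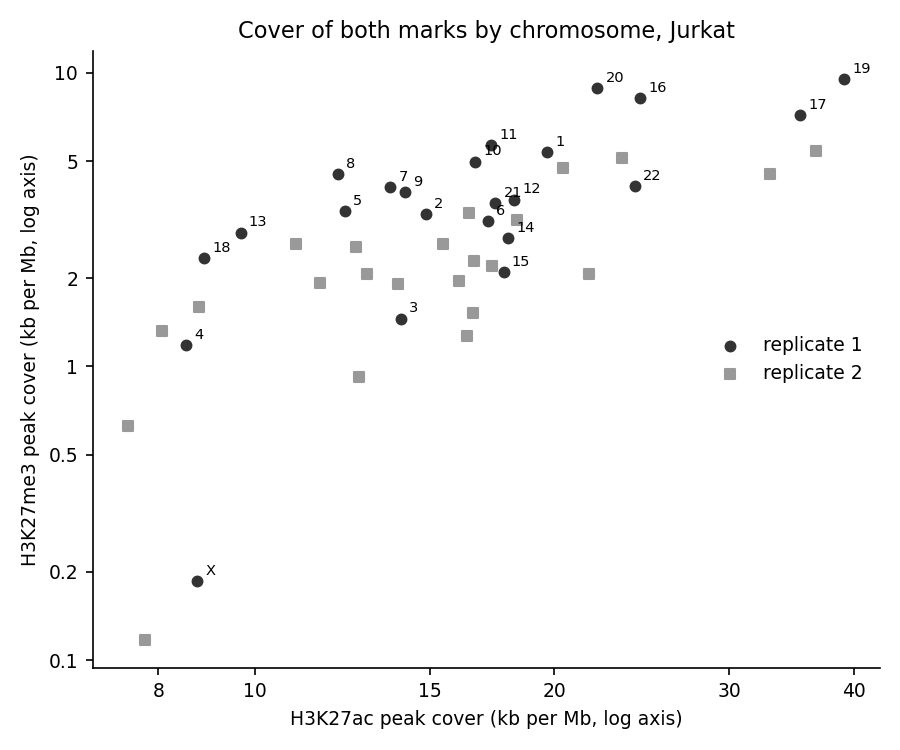
H3K27me3 cover against H3K27ac cover of the autosomes and the X chromosome (kb of peaks per Mb, log axes) in replicate 1 (dark circles, labelled with the chromosome) and replicate 2 (grey squares). The Y chromosome is not drawn. Autosomes spread between 8.52 and 39.1 kb per Mb of H3K27ac in replicate 1, and the X chromosome lies at 0.186 and 0.117 kb per Mb of H3K27me3, under all autosomes.

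At the scale of 1 Mb windows on the autosomes, both marks were often present together. Of 2864 windows, 1714 in replicate 1 and 1472 in replicate 2 held peaks of both marks. H3K27ac alone was in 626 and 815 windows, H3K27me3 alone in 309 and 294, and neither in 215 and 283. The Spearman correlation of the marks over windows was 0.13 in each replicate. Windows with no H3K27ac held a mean of 1.79 and 1.20 kb of H3K27me3. Windows in assembly gaps, where neither mark can be called, were not removed from these counts and means. Among windows with H3K27ac, sorted into 5 equal classes by its amount, mean H3K27me3 was 3.36 and 1.90 kb in the lowest class, 5.51 and 3.38 kb in the fourth and 5.09 and 2.88 kb in the highest. The marks thus kept apart at a few kilobases, while 1 Mb windows often held both. Each mark alone was present in most windows, so many would hold both even if the marks were placed independently. The number of windows with both was not tested against such a placement.

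Against Loucy, Jurkat differed most in H3K27me3. Jurkat H3K27me3 covered 11.5 and 6.68 Mb, against 0.203 and 0.179 Mb in Loucy, where the lists held 136 and 144 peaks (a difference of means of 8.88 Mb, exact permutation p = 0.333). The Loucy H3K27me3 libraries were shallower, at 5974153 and 3900279 fragments, so depth and cell line cannot be told apart. The difference turned to -0.0273 Mb when every list was reduced to its 136 strongest peaks. Cover is a sum over peaks, so this setting removes most of the difference by design and cannot speak to its cause. Of the 3265 Jurkat H3K27me3 domains, 61 (1.87%) held any base of a Loucy H3K27me3 peak, against 83 (0.359%) of all 23148 Jurkat H3K27me3 regions. H3K27ac peaks of both Loucy libraries covered at least 10% of 223 of the domains (6.83%), against 515 (2.22%) of all the regions. The domains were also longer than the other regions, which bears on any count of shared bases.

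The median H3K27ac peak was 1080 and 1167 bp in Jurkat, against 997 and 1021 bp in Loucy (difference of means 115 bp, exact permutation p = 0.333). This difference turned to -11 bp at equal peak numbers. Jurkat had 992 and 924 H3K27ac peaks of at least 5 kb, against 1047 and 1947 in Loucy, a difference of -539 (exact permutation p = 0.333). Most of it came from Loucy replicate 2: with replicate 1 of each line alone the difference was -55, and with replicate 2 alone -1023. At a −log10 q of at least 5 the difference of means was -212.5 (exact permutation p = 1). At 20 kb or more there were 32 and 33 peaks in Jurkat, against 7 and 31 in Loucy. Of the 755 broad domains of Jurkat, 333 (44.1%) were covered over at least 50% by H3K27ac in both Loucy libraries and 160 (21.2%) over less than 10% in both. For all 23915 H3K27ac regions in both Jurkat replicates these shares were 41.2% and 32.1%. Among the 10 longest, the domain at chr6:27806485-27840278 was covered most in Loucy (75.5% and 89.5%), and the one at chr2:239245279-239281948 least (0% and 4.19%).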

How the data were processed

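Chromatin immunoprecipitation sequencing was done on 2 Jurkat and 2 Loucy libraries a mark. Per the submitters' processing notes, Bowtie2 2.2.5 and MACS2 2.0.10 were used with the builds hg38 and mm10. Each list is of 1 library: per the file headers, the authors ran broad calling on paired-end fragments, kept 1 fragment per position, scaled the larger data set to the smaller, used a q cutoff of 0.05, and took 1 input for all 4 Jurkat lists. The deposited lists give each peak's length in bp, its pileup (a signal, in fragments), its fold enrichment (a ratio), and −log10 p-value and −log10 q-value. The lists also hold peaks with a q above that cutoff. The lowest −log10 q in the H3K27me3 lists was 1.005 in replicate 1 and 1.013 in replicate 2. A separate cutoff for broad regions is not printed in the headers, so such peaks need not have failed the authors' threshold.

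Computed here with Python 3.11.15, pandas 2.3.3 and scipy 1.17.1, on main chromosomes: lengths, cover, overlaps of at least 200 bp, edge gaps, domains and windows. Interval operations were tested on simulated data against bedtools 2.31.1. Comparisons between libraries used two-sided exact permutation tests over samples, for which n is the number of libraries. Chromosome extents ran to the last peak end in any human list. Regions were named by rule: the 10 longest domains of each mark in both replicates, the 5 longest overlaps and the 5 highest folds. The members, lists and rules were chosen with earlier results of these data known. An hg38 genome or gene annotation was not used here, so the planned marker and gene lists, and a check of the cell line against its markers, were not run. Depth limits which weak peaks are called.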

Additional observations from a re-analysis of the deposited data

Results flagged for a closer look

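The Jurkat lists also held peaks on sequences other than the main chromosomes, which no comparison above used. There were 52 and 51 such peaks for H3K27ac (replicates 1 and 2), and 97 and 79 for H3K27me3. They made up 0.159% and 0.177% of the H3K27ac lists and 0.581% and 0.775% of the H3K27me3 lists. Their median fold was 4.71 and 4.63 for H3K27ac and 3.28 and 3.02 for H3K27me3.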

How the results depend on the processing

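The 15 values compared were recomputed under 84 alternative settings in all. In 63 of them the direction held, or the size for values without a test, 17 moved beyond the spread or 1.5 times, and 4 turned sign. Some of the 63 could not have come out otherwise. For the overlap shares and gaps, leaving out 1 of 2 replicates always stays within their spread. The replicate block always keeps the difference of means. With −log10 q of at least 5, the H3K27me3 domains in both replicates numbered 14, the share of H3K27ac peaks meeting H3K27me3 was 0.0396% and of H3K27me3 peaks meeting H3K27ac 29.7%, and the median gaps were 42430 kb from H3K27ac and 46.6 kb from H3K27me3. These rest on 19 and 18 H3K27me3 peaks. Under the same limit, Jurkat minus Loucy was -15.8 bp for the median H3K27ac length and -0.0686 Mb for H3K27me3 cover. At equal peak numbers these were -11 bp and -0.0273 Mb, both overlap shares were 0.0939%, and the gap from H3K27me3 to H3K27ac was 228 kb. The change in H3K27me3 cover between the lines follows by design from cutting each list to as few peaks as Loucy had. The count of peaks has no value at equal peak numbers. Broad domains of at least 10 kb numbered 156, and H3K27me3 domains numbered 1609 when held at 50% and 2059 with peaks of q up to 0.05. With any shared base, 0.414% of H3K27ac and 0.961% of H3K27me3 peaks met the other mark. With the other replicate's list 0.750% of H3K27me3 peaks did, and without high-coverage, low-fold peaks 0.607%. The last setting, the q limit of 0.05 and the 50% rule for peaks found again were chosen after seeing the data.

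Leaving out 1 replicate, H3K27me3 regions numbered 10120 to 16590, since no second list was then required, and broad acetylated peaks 924 to 992. The difference in median length between H3K27ac and H3K27me3 was 573 to 669 bp, and that in H3K27me3 cover between Jurkat and Loucy 6.50 to 11.3 Mb. The difference in broad peaks between Jurkat and Loucy was -1023 to -55. With the replicate block, the paired difference between H3K27ac and H3K27me3 was 621 bp in median length, 2204 bp in the 95th percentile, 38.0 Mb in cover and 17365 peaks, each with an exact sign-flip p of 0.5, the smallest that 2 pairs can give. Nothing in the labels says that a number marks a shared culture or day, and 2 pairs are too few to check it. The causes of these changes were not tested.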
